A study of Mus musculus with 8 samples.

Results

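Integrins and the proteins that tie them to the actin cytoskeleton were followed in the wall of the mouse small intestine before and after birth. The genes were chosen by name from a table of gene levels: every protein-coding gene whose symbol begins with Itga or Itgb, leaving out the Itgb1bp names and Itgbl1, and 12 focal adhesion genes (Vcl, Tln1, Tln2, Ilk, Parva, Parvb, Lims1, Lims2, Pxn, Ptk2, Fermt2 and Zyx). This gave 40 of the 46635 loci in the table: 18 alpha subunits, 9 beta subunits, the 12 focal adhesion genes and Itgb3bp. The last matches the name pattern but encodes a kinetochore protein, and it is counted among the 40 without being an integrin. Of the 27 integrin subunits, 8 are restricted mainly to leukocytes (Itgal, Itgam, Itgax, Itgad, Itgae, Itgb2, Itgb2l and Itgb7). Of the other 19, 16 are treated here as integrins of the gut wall, Itgb4 and Itgb6 as integrins of epithelium, and Itga2b as the platelet alpha subunit.

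Wild-type mice gave 8 libraries of small-intestinal mesenchyme, 4 in late gestation (E17.5, an embryonic day that the age label shortens to E17) and 4 at postnatal day 14 (P14). No library was treated, mutant or transgenic. The mesenchyme is what EDTA, which loosens epithelium, left of the intestine: muscle, connective tissue cells, vessels, nerves and leukocytes. The study concerned lengthening of the gut. The series' design text counts 4 mice at each age, and nothing says whether the mice came from separate litters.

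Integrins are receptors for extracellular matrix made of 1 alpha and 1 beta subunit, and the alpha subunit largely sets which matrix protein is bound. Inside the cell, talin and kindlin bind the beta tail and switch the receptor on, vinculin strengthens the link of talin to actin, and integrin-linked kinase (ILK) joins a PINCH protein and a parvin in a complex that anchors actin. Focal adhesion kinase and paxillin carry the signal onwards. In smooth muscle these proteins form the dense plaques through which contractile force reaches the matrix, and in leukocytes beta2 and beta7 integrins serve capture and homing.

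Values are FPKM, which scale a gene's reads by its length and by a depth set for the library and so can be compared between genes. Each library held 16660998 to 19496632 assigned reads. P14 replicate 1 stood apart. Epcam, an epithelial adhesion gene, reached 1228 FPKM there, against 8.46 to 118 in P14 replicates 2 to 4 and 0.683 to 1.73 at E17.5. Summed over 10 epithelial markers, the level was 16.7 to 26.9 FPKM at E17.5, 75.5 to 523 in P14 replicates 2 to 4 and 3883 in P14 replicate 1, and no marker was at 0. The smooth muscle sum was 4722 to 5184 FPKM at E17.5, 7450.1 to 10511 in P14 replicates 2 to 4 and 2707 in P14 replicate 1, and the fibroblast sum was 2265 to 2512, 2506 to 2568 and 915 over the same libraries. The epithelial sum was thus below the smooth muscle sum in 7 libraries, and above it in P14 replicate 1, against the mesenchyme label. Most members are therefore compared with and without P14 replicate 1. The tests of ratios between related genes, and several genes outside the 40, are given with all 8 libraries only.

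With all 8 libraries, 7 of the integrin subunits treated here as those of the wall fell between E17.5 and P14 and none rose. Among the 7 is Itga4, which is also found on leukocytes. Genes at 1 FPKM or more in at least 4 libraries were tested by limma on log2(FPKM + 1), with adjusted p-values over all 14044 tested genes and a threshold of 0.05. Of the 40 genes, 35 were tested, and Itga10, Itgb6, Itgad, Itgae and Itgb2l were too low. Among the 35, 1 rose (Lims2) and 11 fell (Itga2, Itga11, Itga8, Itgam, Itga6, Itgax, Itgav, Itga4, Ptk2, Itgb3bp and Itgb8). Increases thus made up 2.86% and decreases 31.4% of the members tested, where 9.72% and 15.0% of the 14044 genes were called. Without P14 replicate 1, 6 rose and 16 fell, 17.1% and 45.7%, beside 22.6% and 26.9% of all tested genes. The 12 genes called with all libraries were all among those 22.

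The 15 tested wall integrins had 7 decreases (46.7%, beside 15.0% of all tested genes), no increase and a median log2 fold change of -0.419. For the 5 tested leukocyte integrins there were 2 decreases (40.0%), no increase and a median of -0.695. Among the 12 focal adhesion genes there were 1 increase and 1 decrease (8.33% each, under the 9.72% and 15.0% of all tested genes), with a median of -0.23, and over all tested genes the median was 0.0022. Without P14 replicate 1 the 15 tested wall integrins had 2 increases (13.3%) and 9 decreases (median -0.465). The 5 tested leukocyte integrins had 3 decreases and no increase (median -0.814). The focal adhesion genes had 2 increases and 3 decreases (16.7% and 25.0%, median -0.0139). Over all tested genes 22.6% rose and 26.9% fell in that fit (median -0.025). Decreases thus exceeded the all-gene share among the wall and leukocyte integrins, but not among the focal adhesion genes. Increases exceeded it in none of these classes. The counts and shares are descriptions of the lists, since some genes passed the filter through the age in which they were high. Itga11 and Itgb8 did so, each higher at E17.5 and at 1 FPKM or more in a single P14 library.

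The level in every P14 library lay below every E17.5 library for 16 of the 35 tested genes (45.7%, beside 20.4% of all tested genes) and above for 2, Itga3 and Itgb4 (5.71%, beside 15.6%). Rescaling each library to TPM shifted the all-gene median log2 difference by -0.18 and lowered the share of increases among all called genes from 39.3% to 25.1%. The same 11 decreases were called after rescaling. The Lims2 call was lost there and Itgb4 was called as an increase.

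**Figure D1:**
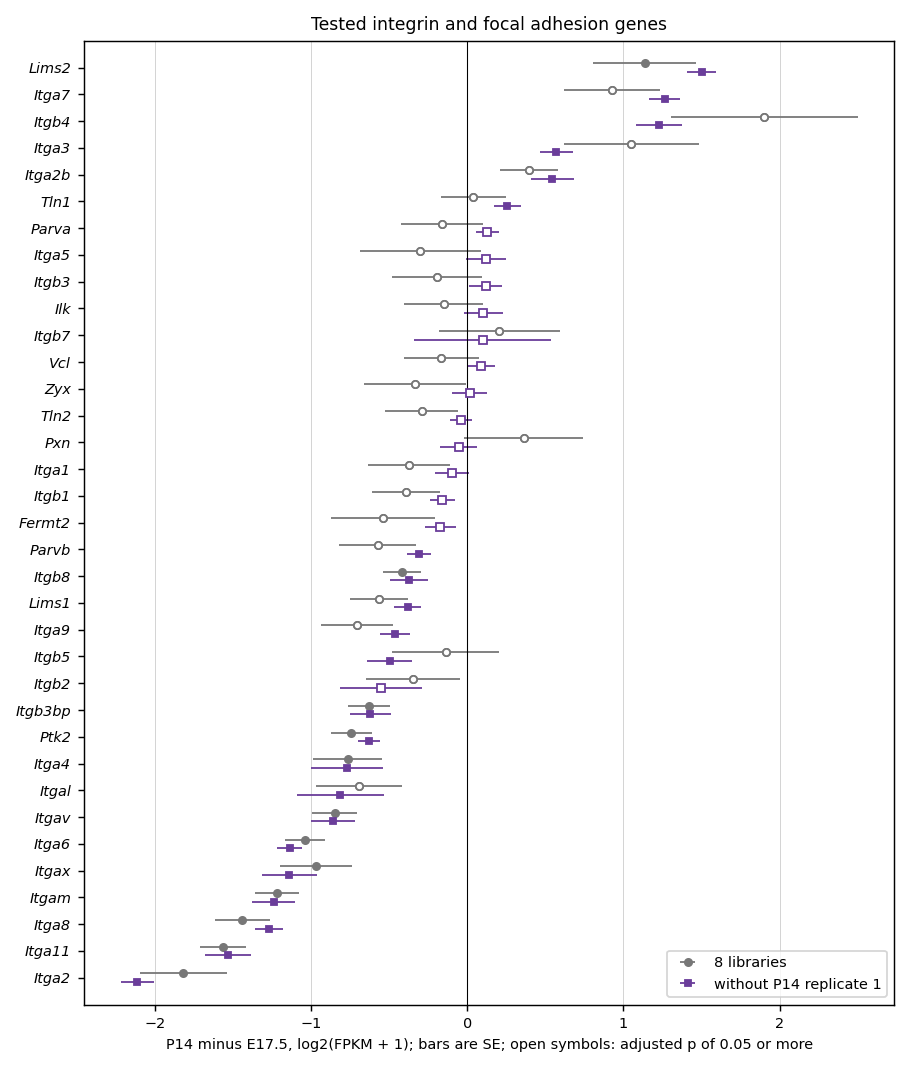
Difference in level of each of the 35 tested genes between P14 and E17.5, in log2(FPKM + 1) with SE, for all 8 libraries (circles) and without P14 replicate 1 (squares); filled symbols passed the test. Itga2, Itga11 and Itga8 stand furthest to the left in both fits, and Lims2, Itga7, Itgb4 and Itga3 to the right, where only Lims2 is filled with all libraries.

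Of the alpha subunits that bind the RGD sequence of fibronectin and related proteins, Itga8 and Itgav fell and Itga5 did not pass. Itga8, the receptor subunit for nephronectin (gene 241226, GRCm39 chromosome 2, 12111443 to 12306796), measured 17.8, 21.9, 20.3 and 19.3 FPKM in fetal replicates 1 to 4. In P14 replicates 1 to 4 it was at 4.35, 7.06, 7.53 and 8.22 FPKM. The ages did not overlap, and the lowest value was that of P14 replicate 1. The means were 19.8 ± 1.75 and 6.79 ± 1.7 FPKM (SD, n = 4; log2 fold change -1.44, SE 0.177, adjusted p = 0.00181), and the difference remained without P14 replicate 1 (log2 fold change -1.27, SE 0.0895, adjusted p = 2.73e-05).

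Itgav, the alpha subunit of the vitronectin receptors (chromosome 2, 83551625 to 83637261), stood at 17.7, 20.2, 25.2 and 27.8 FPKM in the fetal libraries and 12.2, 12.1, 11.5 and 12 FPKM at P14. The P14 values lay within 1 FPKM of each other, P14 replicate 1 included, and below every fetal library (log2 fold change -0.85, SE 0.145, adjusted p = 0.00569). The decrease without P14 replicate 1 was of like size (log2 fold change -0.86, SE 0.144, adjusted p = 0.0016).

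Itga5, the alpha subunit of the main fibronectin receptor and the alpha subunit with the highest mean level (chromosome 15, 103252713 to 103275218), was at 97.2, 89.6, 86.3 and 84.5 FPKM at E17.5. At P14 it was at 29.3, 116, 78.3 and 101 FPKM, low in replicate 1 and on either side of the fetal values in the others. The ages overlapped (log2 fold change -0.30, SE 0.388, adjusted p = 0.595), and the sign turned without P14 replicate 1 (log2 fold change 0.12, SE 0.128, adjusted p = 0.458). The ratio of Itga5 to Itga8 levels was 4.09 to 5.48 at E17.5 and 6.75, 16.4, 10.4 and 12.3 in P14 replicates 1 to 4.

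The collagen-binding alpha subunits split. Itga1 and Itga2 lie next to each other on chromosome 13, at 115094615 to 115238500 and 114969617 to 115068636. Itga1, the collagen receptor subunit typical of smooth muscle and fibroblasts, was at 22.1, 24, 27.9 and 28.6 FPKM before birth and 10.5, 24.7, 21.2 and 25.6 at P14. P14 replicate 1 was low and the other P14 values overlapped the fetal ones (log2 fold change -0.38, SE 0.265, adjusted p = 0.327; without that library log2 fold change -0.10, SE 0.11, adjusted p = 0.482). Its neighbour Itga2, also a collagen receptor subunit, was at 11.5, 13.2, 14.4 and 15.2 FPKM in fetal replicates 1 to 4 and 6.58, 2.11, 2.6 and 2.35 at P14. The ages did not overlap, and the highest P14 value was that of replicate 1. On the log2(FPKM + 1) scale Itga2 had the largest decrease of the 35 genes, with all libraries (log2 fold change -1.82, SE 0.278, adjusted p = 0.00408) and without P14 replicate 1 (log2 fold change -2.12, SE 0.106, adjusted p = 7.99e-06). With a pseudocount of 0.1 and all libraries, the decrease was larger for Itga11 (-2.31) than for Itga2 (-2.11).

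Itga11, a fibrillar collagen receptor subunit of fibroblasts (chromosome 9, 62585137 to 62691618), was at 4.46, 5.41, 4.22 and 3.29 FPKM at E17.5. It was at 0.69, 0.694, 1.07 and 0.73 FPKM at P14, with no overlap and with P14 replicate 1 in the same range as the others. The log2 difference was as large without that library (log2 fold change -1.56, SE 0.147, adjusted p = 0.000726; log2 fold change -1.54, SE 0.148, adjusted p = 0.000112). Pdgfra, the defining fibroblast marker, also fell without overlap, from 54.1 to 64.3 FPKM at E17.5 to 34.5 to 41 in P14 replicates 2 to 4 and 23.7 in P14 replicate 1 (log2 fold change -0.82, SE 0.17, adjusted p = 0.0122; without that library -0.67, adjusted p = 0.000854). Of the 7 fibroblast markers, Pdgfra was the only 1 called down, and Dpt rose (log2 fold change 2.01, SE 0.315, adjusted p = 0.00441). Without P14 replicate 1, 3 of the 7 rose (Dpt, Col3a1 and Dcn) and 1 fell. The fibroblast sum, which is mostly collagen genes and Dcn, was given above, and the part of fibroblasts in the Itga11 result was not tested. Col1a1, a collagen I chain and ligand of this receptor, was at 757, 715, 619 and 566 FPKM in the E17.5 libraries and 176, 569, 572 and 596 at P14. Itga10, a collagen receptor subunit known from cartilage, was at 0.786 to 0.891 FPKM at E17.5 and 0.806 to 1.27 at P14, from 57 to 117 reads per library, and was not tested. Together the 4 collagen-binding subunits summed to 38.9 to 47.9 FPKM at E17.5 and to 18.6, 28.7, 26.1 and 29.8 FPKM in P14 replicates 1 to 4.

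Among the laminin-binding alpha subunits the direction differed from gene to gene. Itga6, a laminin receptor subunit of endothelium, epithelium and neural cells (chromosome 2, 71617236 to 71688771), was at 35.5, 36, 39.2 and 43 FPKM before birth and 22.6, 16.4, 17.1 and 17 at P14. It fell without overlap (log2 fold change -1.04, SE 0.129, adjusted p = 0.00181; without P14 replicate 1 log2 fold change -1.14, SE 0.0825, adjusted p = 3.04e-05). Of 6 tested endothelial markers 5 were called down in both fits. The other, Cldn5, was called up without P14 replicate 1 (log2 fold change 0.74, SE 0.134, adjusted p = 0.00248). The marker sum was 415 to 461 FPKM at E17.5, 266 to 316 in P14 replicates 2 to 4 and 143 in P14 replicate 1, and none was at 0. That sum was thus lowest in P14 replicate 1, where Itga6 was the highest of the P14 libraries. The part of endothelium in the Itga6 result was not tested. In bulk tissue, fewer cells of a type and less RNA per cell cannot be told apart, here and in the results that follow.

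Itga7, the laminin receptor subunit of muscle (chromosome 10, 128769633 to 128794155), was at 1.98, 2.06, 1.83 and 2.16 FPKM at E17.5. In P14 replicates 1 to 4 it was at 1.85, 6.25, 5.52 and 6.94 FPKM. Replicates 2 to 4 lay above every fetal library, and replicate 1 lay among them. With all libraries the increase missed the threshold (log2 fold change 0.93, SE 0.307, adjusted p = 0.0598), and without P14 replicate 1 Itga7 rose (log2 fold change 1.26, SE 0.0966, adjusted p = 3.82e-05).

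Itga3, the laminin receptor subunit shared by epithelium and other cells (chromosome 11, 94935301 to 94967637), was at 15.4, 13.5, 11.3 and 12.9 FPKM in fetal replicates 1 to 4 and 79, 19.2, 21.7 and 19.4 at P14. Every P14 library was higher, and replicate 1 was far above the rest. The increase missed the threshold with all libraries (log2 fold change 1.05, SE 0.43, adjusted p = 0.11) and passed without P14 replicate 1 (log2 fold change 0.57, SE 0.104, adjusted p = 0.00253). The epithelial sum, given above, also ran highest in P14 replicate 1, lower in replicates 3, 4 and 2 in that order (523, 173 and 75.5 FPKM) and lowest at E17.5, and its part in the Itga3 result was not tested.

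Itga4, whose product pairs with beta1 or beta7 and is found on leukocytes and on fetal mesenchymal and neural crest cells, was at 5.07, 5.26, 6.05 and 6.81 FPKM in the E17.5 libraries and 3, 1.6, 3.46 and 4.36 at P14. The ages did not overlap, and P14 replicate 2 was lowest (log2 fold change -0.77, SE 0.221, adjusted p = 0.0384). Leaving out any single E17.5 library, or P14 replicate 3, ended that call (adjusted p from 0.0668 to 0.105), and held without P14 replicate 1 (adjusted p = 0.026). Itga9, a receptor subunit for tenascin-C and other ligands in smooth muscle and lymphatic vessels, was at 38.8, 38.5, 38.3 and 30.7 FPKM before birth and 12.9, 26.1, 26.1 and 26.2 at P14. P14 replicates 2 to 4 were nearly equal, and P14 replicate 1 was lower still. With all libraries it narrowly missed the threshold (log2 fold change -0.71, SE 0.233, adjusted p = 0.0596), and without P14 replicate 1 it fell (log2 fold change -0.46, SE 0.0934, adjusted p = 0.00403).

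**Figure D2:**
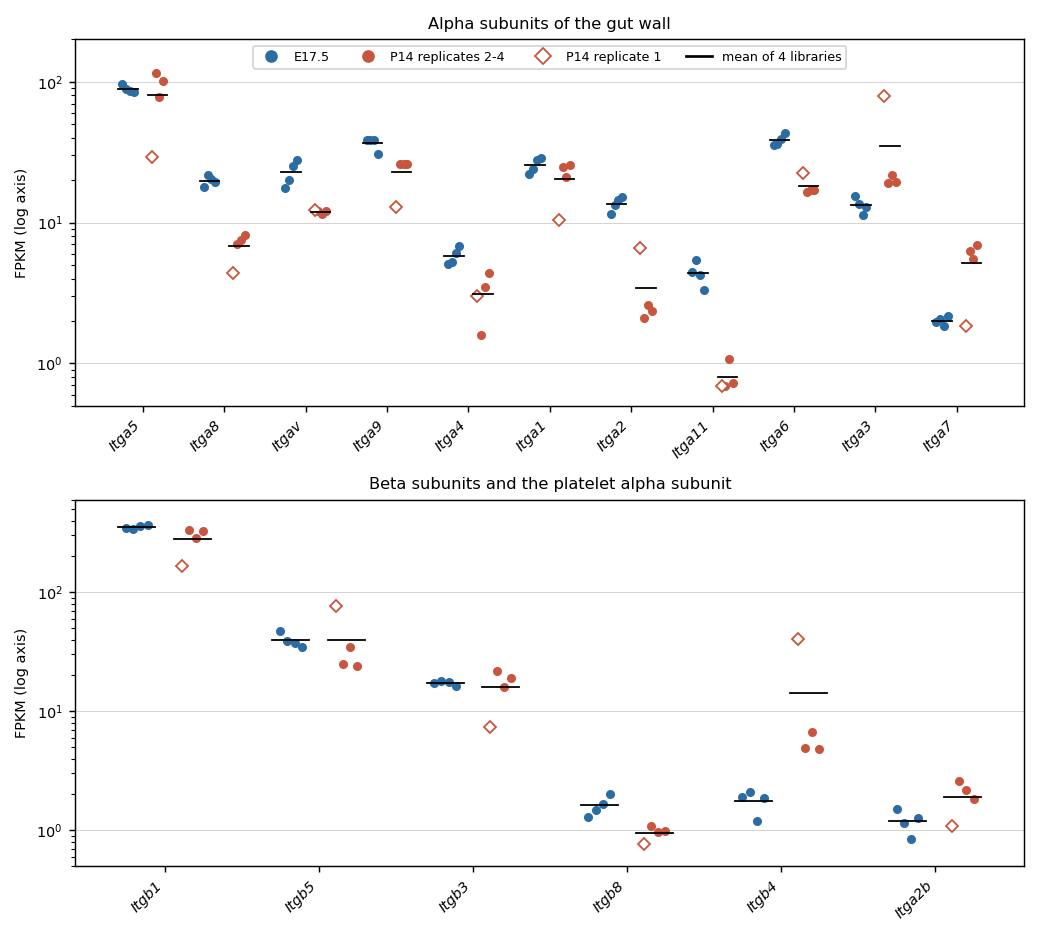
FPKM on a log axis of wall alpha subunits (top) and of beta subunits with the platelet subunit Itga2b (bottom), 1 symbol per library: E17.5, P14 replicates 2 to 4, and P14 replicate 1 as an open diamond; lines are means of 4 libraries. Itga8, Itgav, Itga2, Itga11 and Itga6 have P14 libraries below all fetal ones, while the diamond lies far from the other P14 libraries for Itga5, Itga3, Itgb1, Itgb5 and Itgb4.

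Beta1, the common partner of most of these alpha subunits, had the highest level of all members. Itgb1 (chromosome 8, 129412135 to 129460060) was at 347, 338, 359 and 368 FPKM in fetal replicates 1 to 4 and 165, 333, 286 and 329 at P14. P14 replicates 2 to 4 lay just below the fetal libraries, and replicate 1 was far below all others. The means of 353 ± 13.6 and 278 ± 78.2 FPKM did not pass the test (log2 fold change -0.39, SE 0.218, adjusted p = 0.216; without P14 replicate 1 log2 fold change -0.16, SE 0.0806, adjusted p = 0.127). Itgb1 was called down only when P14 replicate 1 was left out and the rest were rescaled to TPM (-0.23, adjusted p = 0.0244). The 12 alpha subunits able to pair with beta1 summed to 0.747 to 0.801 of the Itgb1 level at E17.5, 1.11 in P14 replicate 1 and 0.685 to 0.701 in P14 replicates 2 to 4.

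Itgb5, a vitronectin receptor beta subunit that pairs with alpha v, was at 47, 38.9, 37.4 and 34.5 FPKM in the E17.5 libraries and 76, 24.8, 34.5 and 24.2 at P14. P14 replicate 1 was the highest of all libraries and replicates 2 to 4 lay below the fetal values, replicate 3 only just. No change was called with all libraries (log2 fold change -0.14, SE 0.343, adjusted p = 0.79), and without P14 replicate 1 Itgb5 fell (log2 fold change -0.50, SE 0.145, adjusted p = 0.0207). Itgb3, which pairs with alpha v in vessels and muscle and with the platelet alpha subunit, was at 17.2, 17.8, 17.6 and 16.2 FPKM before birth and 7.3, 21.8, 15.8 and 19 at P14. P14 replicates 2 and 4 lay above the fetal range and replicates 1 and 3 below it, and neither fit called it (adjusted p = 0.65 and, without P14 replicate 1, adjusted p = 0.377). Itgb8, which pairs with alpha v and activates latent TGF-beta, was low, at 1.29, 1.48, 1.67 and 2.02 FPKM in fetal replicates 1 to 4 and 0.763, 1.08, 0.956 and 0.991 at P14. It fell without overlap (log2 fold change -0.42, SE 0.119, adjusted p = 0.0363), but leaving out any single library other than E17.5 replicate 1 and P14 replicate 1 ended that call (adjusted p from 0.0509 to 0.0962). Itgb8 reached 1 FPKM in a single P14 library and passed the filter through its E17.5 levels.

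Of the epithelial beta subunits, Itgb4, the partner of alpha6 in hemidesmosomes and also made by Schwann cells and some endothelium, was at 1.89, 2.08, 1.2 and 1.87 FPKM at E17.5. At P14 it was at 40.4, 4.92, 6.64 and 4.85 FPKM, above every fetal library and highest in replicate 1. With all libraries it just missed the threshold (log2 fold change 1.90, SE 0.598, adjusted p = 0.0513), and without P14 replicate 1 it rose (log2 fold change 1.23, SE 0.148, adjusted p = 0.000335). Itgb6, which pairs with alpha v in epithelium, was represented by 1 to 2 reads per library at E17.5 and by 874, 13, 88 and 34 reads in P14 replicates 1 to 4 (11.4, 0.13, 0.858 and 0.325 FPKM), and was not tested. The order of the P14 libraries in Itgb6 is that of the epithelial sum, whose part in the values of both genes was not tested.

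Itga2b, the alpha subunit of the platelet fibrinogen receptor, was at 1.52, 1.14, 0.844 and 1.27 FPKM in the E17.5 libraries and 1.08, 2.6, 2.16 and 1.82 at P14. P14 replicates 2 to 4 were above all fetal libraries and P14 replicate 1 was not. It did not pass with all libraries in the fit as designed (adjusted p = 0.159), and was called up without P14 replicate 1 (log2 fold change 0.54, SE 0.139, adjusted p = 0.0118) and with sample weights (adjusted p = 0.00714). Of the 2 tested platelet markers, Gp1bb, a chain of a platelet adhesion receptor, rose in both fits (log2 fold change 0.59, SE 0.136, adjusted p = 0.0178; without P14 replicate 1 0.53, adjusted p = 0.0103). Pf4, which encodes platelet factor 4 and makes up most of the platelet marker sum, was at 29.9 to 34.8 FPKM at E17.5, 19.3 to 30.9 in P14 replicates 2 to 4 and 7.64 in P14 replicate 1, and the 7 platelet markers together summed to 31.7 to 37.7, 22.0 to 33.6 and 11.4 FPKM, with 8 of the values at 0. The part of platelets in the Itga2b values was not tested.

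The makeup of the alpha subunits differed between the ages. Itga5 took 28.5% to 34.1% of the summed alpha subunit FPKM at E17.5 and 37.5% to 48.1% in P14 replicates 2 to 4. Itga6 went from 12.4% to 14.5% down to 6.84% to 8.17% over the same libraries, and Itga8 from 6.23% to 7.58% down to 2.94% to 3.61%. Itga3 was at 3.82% to 5.4% and 8% to 10.4%, but made up 40.3% in P14 replicate 1, where Itga5 was at 15%. These are shares of FPKM within each library, free of library scaling, and were not tested. Among the beta subunits, Itgb1 made up 82.4% to 85.5% at E17.5, 81.3% to 85.8% in P14 replicates 2 to 4 and 53% in P14 replicate 1, where Itgb5 (24.4%) and Itgb4 (13%) took more.

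**Figure D3:**
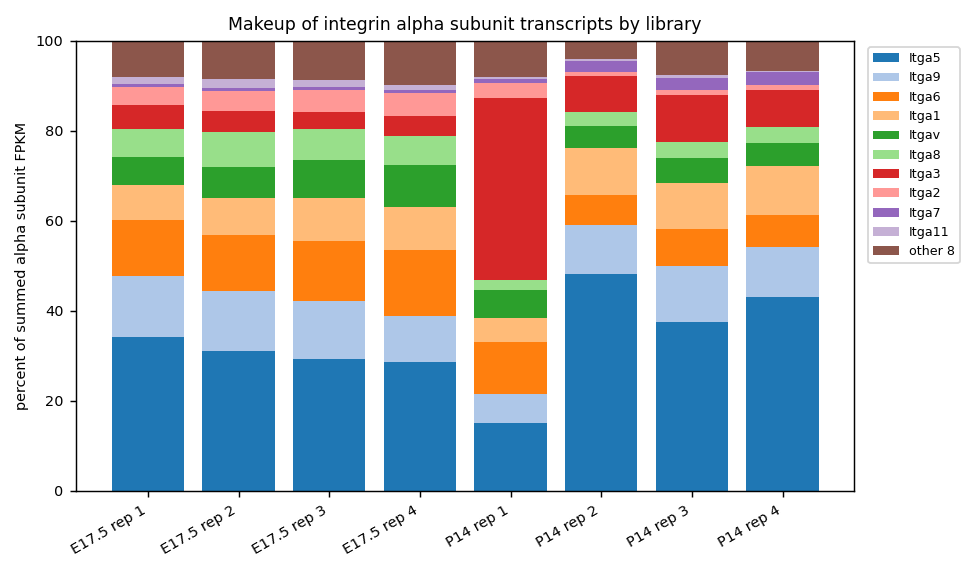
Share of each alpha subunit gene in the summed FPKM of the 18 alpha subunits, stacked to 100%, for the 8 libraries. The Itga5 segment is widest in P14 replicates 2 to 4 (37.5% to 48.1%), and P14 replicate 1 differs from all other libraries by an Itga3 segment of 40.3%.

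No leukocyte integrin exceeded 7.99 FPKM in any library. Itgal, Itgam, Itgax and Itgad encode alpha partners of beta2 and lie on chromosome 7 between 126895404 and 127822988. Itgam, the alpha subunit of the complement receptor of macrophages and neutrophils (also called CD11b), was at 4.64, 5.3, 5.98 and 5.96 FPKM at E17.5. It was at 1.89, 1.37, 2.31 and 1.58 FPKM at P14, with no overlap, and fell with all libraries (log2 fold change -1.22, SE 0.14, adjusted p = 0.00137) and without P14 replicate 1 (log2 fold change -1.24, SE 0.137, adjusted p = 0.000213).

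Itgax, the alpha subunit called CD11c and carried by dendritic cells and gut macrophages, was at 6.25, 6.16, 7.44 and 7.99 FPKM before birth and 4.79, 1.85, 3.82 and 2.36 at P14. It fell without overlap (log2 fold change -0.97, SE 0.229, adjusted p = 0.0199; without P14 replicate 1 log2 fold change -1.14, SE 0.177, adjusted p = 0.00111), and leaving out E17.5 replicate 3, E17.5 replicate 4 or P14 replicate 4 ended that call (adjusted p from 0.0527 to 0.0628). Markers of macrophages and dendritic cells moved with both genes, with 5 of 6 tested called down. Their sum of 8 was 119.6 to 136 FPKM at E17.5, 47.3 to 63.3 in P14 replicates 2 to 4 and 119 in P14 replicate 1, where Csf1r, the growth factor receptor that defines macrophages, was at 94.6 FPKM. That sum was mostly Csf1r in P14 replicate 1, where Adgre1 (3.51 FPKM), Mrc1 (3.59), Cx3cr1 (4.43) and Zbtb46 (1.05) were at their lowest of the 8 libraries. The part of these cells in the result was not tested.

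Itgal, the alpha subunit of LFA-1 on lymphocytes and other leukocytes, was at 4.13, 4.88, 4.23 and 5.3 FPKM in fetal replicates 1 to 4 and 3.45, 0.931, 2.56 and 3.74 at P14. The ages did not overlap and P14 replicate 2 was lowest, but the difference passed only without P14 replicate 1 (log2 fold change -0.81, SE 0.278, adjusted p = 0.0423; with it, adjusted p = 0.101). Itgb2, the shared beta subunit, was at 5.05, 6.21, 6.08 and 6.92 FPKM in the E17.5 libraries and 7.48, 1.95, 4.63 and 5.61 at P14. These overlapped, with P14 replicate 1 above every fetal library, and no change was called (adjusted p = 0.422; without P14 replicate 1 adjusted p = 0.117). Ptprc, the pan-leukocyte gene CD45, was also lowest in P14 replicate 2, at 14, 2.18, 10.5 and 14.2 FPKM, against 9.35 to 15.9 at E17.5.

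Itgb7, the beta subunit of the gut-homing receptor of lymphocytes, varied more within P14 than between the ages, at 1.83, 1.5, 1.61 and 1.13 FPKM before birth and 2.61, 0.202, 2.4 and 3.71 at P14 (log2 fold change 0.20, SE 0.39, adjusted p = 0.725). It was called up only when P14 replicate 2, the low library, was left out. The 8 T cell and intraepithelial lymphocyte markers summed to 25.5, 1.18, 13.9 and 28.3 FPKM in P14 replicates 1 to 4 and 8.31 to 11.5 at E17.5, with 2 of their values at 0. At E17.5 most of that sum was Cd7 (6.46 to 8.65 FPKM), the 1 tested marker, which fell (log2 fold change -1.66, SE 0.422, adjusted p = 0.0256). Cd3d, a T cell receptor complex gene, was at 0.0381 to 0.241 FPKM at E17.5 and 3.25, 0.29, 2.29 and 4.04 in P14 replicates 1 to 4. The part of these cells in the Itgb7 values was not tested. Itgae, for the alpha subunit CD103 that holds lymphocytes in the epithelium, was at 0.294, 1.03, 0.466 and 0.752 FPKM in fetal replicates 1 to 4 and 0.893, 0.337, 0.511 and 0.654 at P14 and was not tested, as were Itgad and Itgb2l. Itgad had 0 to 5 reads per library. Itgb2l, a beta2-like gene, had 25 reads in P14 replicate 1 and 0 to 5 in every other library.

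**Figure D4:**
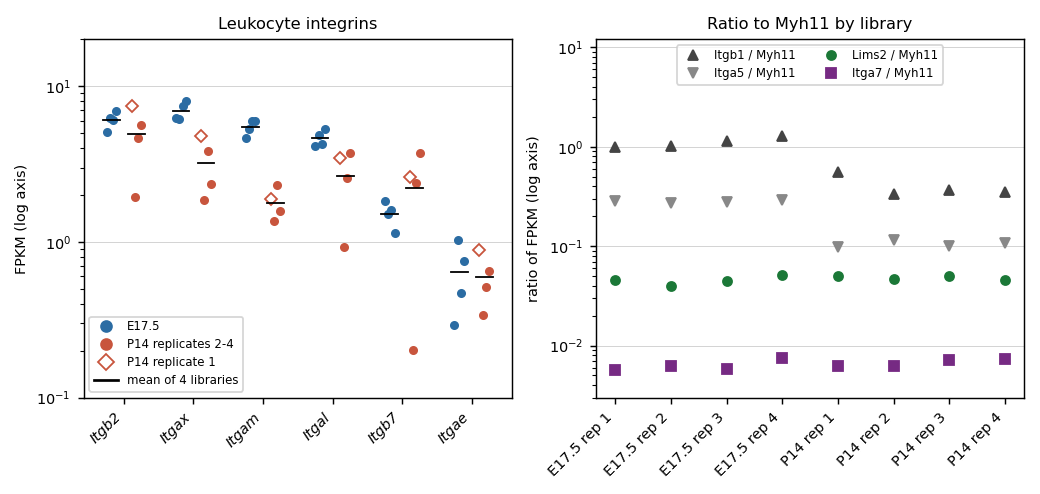
Left, FPKM of leukocyte integrins on a log axis by library, with means of 4 libraries as lines; right, FPKM of 4 members divided by that of Myh11 in each library, on a log axis. Itgam and Itgax are lower in every P14 library than in any fetal one, Itgb7 is spread widely at P14, and the ratios of Lims2 and Itga7 to Myh11 run level across all 8 libraries while those of Itgb1 and Itga5 step down from E17.5 to P14.

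Of the focal adhesion genes, Lims2 and Ptk2 were called with all libraries and the other 10 were not. Ilk, the integrin-linked pseudokinase (chromosome 7, 105385797 to 105392132), was at 181, 159, 163 and 152 FPKM in the E17.5 libraries and 86.1, 205, 144 and 183 at P14. Fermt2, which encodes kindlin-2, was at 126, 120.2, 136 and 145 FPKM and 41.7, 128, 104 and 118 FPKM. Vcl, which encodes vinculin (chromosome 14, 20979436 to 21083744), was at 98, 96.2, 103 and 105 FPKM before birth and 52.4, 111, 94.1 and 117 at P14. In all of these the ages overlapped in P14 replicates 2 to 4, and P14 replicate 1 was the lowest of the 8 libraries. Their log2 fold changes were -0.15 for Ilk, -0.54 for Fermt2 and -0.17 for Vcl (adjusted p = 0.684, 0.263 and 0.639), and without P14 replicate 1 they were 0.10, -0.17 and 0.09 (adjusted p = 0.522, 0.172 and 0.445).

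SRF, a factor of contractile and adhesion genes, and TEAD, the DNA-binding partner of the co-activator YAP, are known regulators of several of these genes, so the DNA just upstream of the members' starts was read for their motifs. The windows are the 250 bases before the start in RefSeq's GRCm38.p6 annotation, a build other than the GRCm39 of the gene table, and 27 of the 40 members had an entry, with 32 windows. A CArG box, the SRF motif, was found on either strand in 1 window each of Vcl, Fermt2 and Itgb6, 3 of the 32 windows, and in 1.47% of all 32851 windows. GGAATG, the TEAD core, was found on either strand in 1 window each of Vcl, Itgb1 and Itga10, again 3 of the 32, and in 12.6% of all windows. Capitals mark these matches, which do not overlap each other, in the windows of Vcl (chr14:20929148-20929397, plus strand), Fermt2 (chr14:45530066-45530315, minus strand) and Itgb1 (chr8:128685404-128685653, plus strand), each 5′ to 3′. A match describes the letters and does not show binding. The windows show that Vcl holds both motifs, while Fermt2 and Itgb1 hold 1 each.
Vcl: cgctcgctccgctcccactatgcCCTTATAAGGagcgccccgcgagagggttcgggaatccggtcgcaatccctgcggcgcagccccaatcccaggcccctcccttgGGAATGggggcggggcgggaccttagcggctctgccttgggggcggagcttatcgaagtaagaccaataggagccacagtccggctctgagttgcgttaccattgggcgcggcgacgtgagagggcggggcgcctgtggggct
Fermt2: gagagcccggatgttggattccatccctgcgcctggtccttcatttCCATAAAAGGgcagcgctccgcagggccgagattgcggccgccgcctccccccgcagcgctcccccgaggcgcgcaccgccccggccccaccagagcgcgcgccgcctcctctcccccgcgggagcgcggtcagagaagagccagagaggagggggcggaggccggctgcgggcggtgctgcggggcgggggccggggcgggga
Itgb1: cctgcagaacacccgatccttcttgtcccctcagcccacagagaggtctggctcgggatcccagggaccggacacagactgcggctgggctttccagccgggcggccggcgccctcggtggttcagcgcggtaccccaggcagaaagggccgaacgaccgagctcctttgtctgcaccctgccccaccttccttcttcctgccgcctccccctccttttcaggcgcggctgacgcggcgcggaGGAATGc

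Of the talins, which activate integrins, Tln1 was at 70.1, 66.7, 65 and 58.9 FPKM in fetal replicates 1 to 4 and 42.3, 80.9, 71.3 and 81.6 at P14. P14 replicates 2 to 4 lay above the fetal libraries and replicate 1 below. Without replicate 1 Tln1 rose (log2 fold change 0.25, SE 0.0863, adjusted p = 0.0377), but with all libraries it did not pass (log2 fold change 0.04, SE 0.21, adjusted p = 0.908), and the sign turned after TPM rescaling (-0.15) and quantile normalization (-0.14). Tln2, the talin prominent in striated muscle and brain, was at 7.25, 7.46, 7.18 and 7.09 FPKM and 2.99, 7.29, 6.62 and 7.11 FPKM, much the same in 7 libraries and low in P14 replicate 1 (adjusted p = 0.382). The ratio of Tln2 to Tln1 was 0.112 ± 0.00698 at E17.5 and 0.0852 ± 0.00998 at P14 (SD, n = 4), without overlap (log2 difference -0.39, exact two-sided permutation p = 0.0286).

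In the ILK complex the PINCH genes went in opposite directions without P14 replicate 1. Lims1, which encodes PINCH-1, was at 26.6, 25.1, 28.7 and 30.7 FPKM in the E17.5 libraries and 12.2, 22.1, 19.7 and 21.3 at P14. Every P14 library was lower, a difference that narrowly missed the threshold with all libraries (log2 fold change -0.57, SE 0.187, adjusted p = 0.0593) and passed without P14 replicate 1 (log2 fold change -0.38, SE 0.0867, adjusted p = 0.00704). Lims2, which encodes PINCH-2, was at 15.9, 13.1, 14 and 14.9 FPKM before birth and 14.9, 47.2, 38.3 and 43.1 at P14. P14 replicates 2 to 4 were far above the fetal libraries and P14 replicate 1 was among them. The increase passed narrowly with all libraries (log2 fold change 1.14, SE 0.331, adjusted p = 0.0403) and clearly without P14 replicate 1 (log2 fold change 1.50, SE 0.0948, adjusted p = 1.67e-05). It did not pass without any one of the other 7 libraries (adjusted p from 0.0777 to 0.101), after TPM rescaling (adjusted p = 0.132) or after quantile normalization (0.0631).

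The ratio of Lims2 to Lims1 does not depend on library scaling. It was 0.597, 0.524, 0.489 and 0.484 at E17.5 and 1.22, 2.14, 1.94 and 2.02 in P14 replicates 1 to 4, without overlap. Which of the pair is higher rests on the gene lengths behind the FPKM, 10800 bases for Lims1 and 3121 for Lims2, since Lims1 had more reads in all 8 libraries (1846 against 652 in P14 replicate 1 and 4349 against 2684 in P14 replicate 2). The change in the ratio between the ages does not depend on those lengths. The log2 difference was 1.78 (exact two-sided permutation p = 0.0286). Of the parvins, which link ILK to actin, Parva was at 99.9, 94.7, 98.3 and 91.8 FPKM in fetal replicates 1 to 4 and 46.5, 113, 101 and 102 at P14, with no call in either fit (adjusted p = 0.68; without P14 replicate 1 adjusted p = 0.177). Parvb was lower, at 19.7, 19.5, 21.7 and 20.4 FPKM and 7.25, 17.47, 16.2 and 14.9 FPKM, below the fetal range in every P14 library, and did not pass with all libraries but fell without P14 replicate 1 (log2 fold change -0.31, SE 0.0779, adjusted p = 0.011). The ratio of Parvb to Parva went from 0.211 ± 0.0123 to 0.154 ± 0.00616 without overlap (log2 difference -0.45, exact two-sided permutation p = 0.0286). For each of the 3 ratios 0.0286 is the smallest p that 4 against 4 libraries can give, and the Benjamini-Hochberg adjusted value over the 3 is also 0.0286.

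Ptk2, the gene of focal adhesion kinase (chromosome 15, 73076951 to 73297192), was at 20.3, 21.5, 20.7 and 22.1 FPKM at E17.5. At P14 it was at 9.4, 13.7, 12.5 and 13.9 FPKM, below all fetal libraries and lowest in replicate 1. It fell in both fits (log2 fold change -0.74, SE 0.13, adjusted p = 0.00622; without P14 replicate 1 log2 fold change -0.63, SE 0.0703, adjusted p = 0.000226). Pxn, the gene of the adaptor paxillin, was at 26.1, 26.1, 23.7 and 21.9 FPKM in the E17.5 libraries and 76.4, 19.4, 27.1 and 24.3 at P14. P14 replicate 1 stood far above the other 7 libraries, which overlapped, and the sign of the difference turned without it (0.36 with all libraries, adjusted p = 0.515; -0.06 without, adjusted p = 0.716). Zyx, the gene of the tension-sensitive LIM protein zyxin, was at 59.6, 49.5, 46 and 43.5 FPKM and 18.2, 49.9, 46.5 and 53.3 FPKM, low in P14 replicate 1 and overlapping otherwise (adjusted p = 0.476). P14 replicate 1, which held the highest Itga2, Itga3, Itgb4, Itgb5, Itgb6 and Pxn values of the P14 libraries, also held the highest epithelial sum, and the part of epithelium in these values was not tested.

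Itgb3bp, the kinetochore gene (chromosome 4, 99655643 to 99717403), was at 5.87, 5.38, 6.1 and 6.77 FPKM before birth and 3.44, 2.69, 4.25 and 3.88 at P14. It fell without overlap, by nearly the same amount in both fits (log2 fold change -0.63, SE 0.137, adjusted p = 0.0143; without P14 replicate 1 log2 fold change -0.62, SE 0.133, adjusted p = 0.00542).

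**Figure D5:**
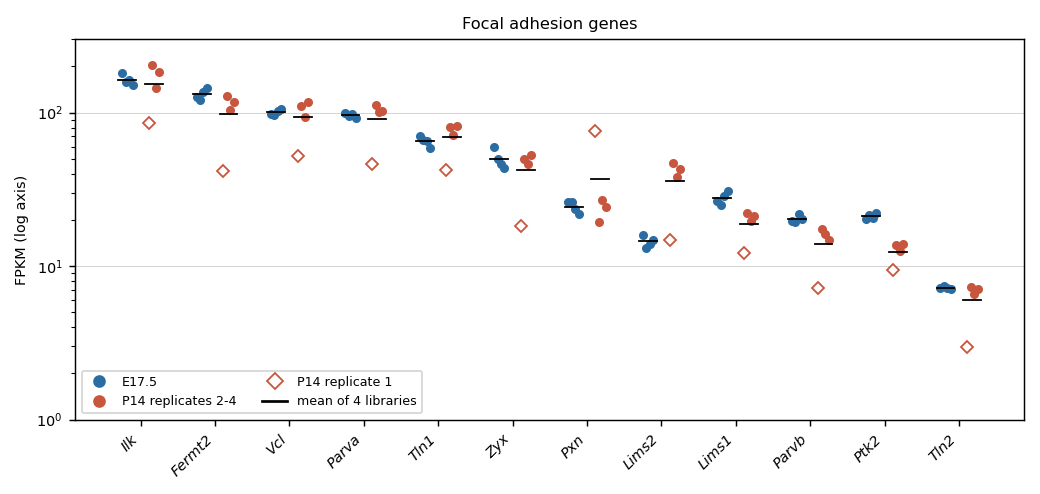
FPKM of the 12 focal adhesion genes on a log axis, 1 symbol per library, with P14 replicate 1 as an open diamond and means of 4 libraries as lines. The diamond is the lowest symbol for 10 of the genes, the highest for Pxn and level with the fetal libraries for Lims2, and Ptk2, Lims1 and Parvb have all P14 libraries below the fetal ones.

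Lims2 and Itga7 kept a nearly fixed proportion to Myh11, the smooth muscle myosin heavy chain gene, which was at 346, 333, 313 and 291 FPKM in fetal replicates 1 to 4 and 299.6, 1005, 773 and 938 at P14. Lims2 was 0.0395 to 0.0511 of the Myh11 level in the 8 libraries, a highest value 1.3 times the lowest. Itga7 was 0.00573 to 0.00744 of it, also 1.3 times. Of 13821 tested genes above 0 in all libraries, 22 had a narrower range than Lims2 (0.159%) and 24 than Itga7 (0.174%), ranks that describe these libraries and were not tested. Other members kept less closely to Myh11. The nearest were Itga2b, with a highest ratio 2.26 times the lowest (4.96% of genes narrower), and Tln1, at 2.58 times (7.46%). The range was 2.97 times for Itga5 (12.1%), 3.28 times for Vcl (17.4%) and 3.83 times for Itgb1 (28.3%). At E17.5 Itgb1 was 1 to 1.27 of the Myh11 level, and in P14 replicates 2 to 4 it was 0.331 to 0.37. Smooth muscle markers rose without P14 replicate 1 in 7 of 8 tested cases and in none with all libraries. Their log2 fold changes without that library ran from -0.029 (Myocd) to 1.49 (Myh11), with Actg2 at 0.58. Lims2 was at 1.50 and Itga7 at 1.26 in the same fit. The fixed proportion is thus to Myh11 and was not shown for the other smooth muscle markers. Whether more muscle or more RNA per muscle cell accompanied Lims2 and Itga7 cannot be told apart.

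Other genes of integrin adhesion were read from 4 lists by role. Of 27 tested integrin ligands, 1 rose and 10 fell, 3.70% and 37.0%, beside 9.72% and 15.0% of all tested genes. Without P14 replicate 1, 5 rose and 14 fell, 18.5% and 51.9%, beside 22.6% and 26.9%. The list had a median log2 fold change of -0.566 (-0.302 without P14 replicate 1). Values in this and the next paragraphs are mean ± SD of 4 libraries. Vtn, which encodes vitronectin, rose from 0.964 ± 0.243 to 3.77 ± 1.44 FPKM (log2 fold change 1.23, SE 0.225, adjusted p = 0.00763). Icam2, an endothelial ligand of LFA-1, fell from 35.2 ± 1.99 to 14.8 ± 3.36 FPKM (log2 fold change -1.22, SE 0.163, adjusted p = 0.0024), and Ccn1, a matricellular ligand gene, fell from 39.3 ± 5.59 to 17.51 ± 2.84 FPKM (log2 fold change -1.12, SE 0.148, adjusted p = 0.00227). The ligand with the highest level, Col1a1, did not pass (adjusted p = 0.269).

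Among 29 tested further adaptors and actin linkers, 1 rose and 2 fell (3.45% and 6.90%, beside 9.72% and 15.0% of all tested genes; median 0.108). Without P14 replicate 1, 11 rose and 5 fell (37.9% and 17.2%, beside 22.6% and 26.9%). Synm, which encodes the muscle intermediate filament protein synemin, rose from 22.4 ± 0.38 to 78.7 ± 34.1 FPKM (log2 fold change 1.63, SE 0.357, adjusted p = 0.0152; without P14 replicate 1 log2 fold change 2.02, SE 0.106, adjusted p = 8.05e-06). Tns2, a tensin that binds beta tails, fell by 0.47 on the log2 scale (SE 0.121, adjusted p = 0.0258). The Tns2 call ended without E17.5 replicate 1, 2 or 3 or P14 replicate 4 (adjusted p from 0.0605 to 0.0748). Csrp1, a muscle LIM protein gene and the most abundant of the list, was at 488, 448, 367 and 369.7 FPKM in the E17.5 libraries and 276, 1064, 810.2 and 963 at P14, called without P14 replicate 1 (adjusted p = 0.000258) and with sample weights (8.75e-05) but not otherwise with all libraries.

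Of 27 tested adhesion kinases and signalling genes, 1 rose and 5 fell (3.70% and 18.5%, the decreases near the 15.0% of all tested genes; median -0.274). Without P14 replicate 1, 2 rose and 15 fell (7.41% and 55.6%, beside 22.6% and 26.9%). Ptk2b, which encodes PYK2, the kinase related to focal adhesion kinase, rose from 2.9 ± 0.337 to 8.43 ± 3.31 FPKM (log2 fold change 1.22, SE 0.226, adjusted p = 0.00809). It was highest in P14 replicate 1, at 13.1 FPKM, and rose without that library too (adjusted p = 0.000425), so the kinase genes Ptk2 and Ptk2b went in opposite directions. Dock1, an activator of Rac, fell (log2 fold change -0.82, SE 0.126, adjusted p = 0.00417), as did Ptpn12, a phosphatase that acts on adhesion proteins (log2 fold change -0.76, SE 0.125, adjusted p = 0.00507). Rac1, the most abundant, did not pass with all libraries (adjusted p = 0.165) and fell without P14 replicate 1 (adjusted p = 0.00773) or after TPM rescaling (adjusted p = 0.0183).

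Of 19 tested regulators of integrin activity and trafficking, 2 rose and 1 fell (10.5% and 5.26%, the increases near the 9.72% of all tested genes; median 0.18). Without P14 replicate 1, 7 rose and 3 fell (36.8% and 15.8%, beside 22.6% and 26.9%). Cd151, which encodes a tetraspanin that partners laminin-binding integrins, rose from 47.3 ± 2.83 to 72.6 ± 8.7 FPKM (log2 fold change 0.60, SE 0.112, adjusted p = 0.00816). Rab25, an epithelial recycling GTPase gene, rose (log2 fold change 2.56, SE 0.791, adjusted p = 0.0488), at 41.8 FPKM in P14 replicate 1 and 1.41, 7.67 and 2.95 in replicates 2 to 4, the order of the epithelial sum. The Rab25 call held without P14 replicate 1 (log2 fold change 1.73, SE 0.389, adjusted p = 0.00876) and without P14 replicate 2, and ended without any other single library (adjusted p from 0.0585 to 0.117). Kank4, a talin-binding protein gene, fell from 6.26 ± 0.581 to 1.56 ± 0.78 FPKM (log2 fold change -1.56, SE 0.25, adjusted p = 0.0048). Rap1b, a small GTPase that recruits talin and the most abundant of the list, did not pass with all libraries (adjusted p = 0.12) and fell without P14 replicate 1 (adjusted p = 0.0277) or after TPM rescaling (adjusted p = 0.0335).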

How the data were processed

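Small-intestinal mesenchyme of wild-type mice was profiled by RNA-seq, with 4 libraries at E17.5 and 4 at P14, grouped by the titles and age labels. FPKM values per gene were deposited by the authors. The submitters' processing notes name HISAT2, featureCounts, fastp, CASAVA and DESeq2 1.20.0, with the GRCm39 build. The strand setting and the FPKM step are not given in the sources used here, so a gene and an antisense partner may share reads. Within each library the values were whole multiples of 1 read scaled by gene length, which gave 16660998 to 19496632 reads. In P14 replicate 1 the depth implied by the scaling was 0.78 of the assigned reads, against 1.02 to 1.06 elsewhere, a difference of unstated origin. For the same share of assigned reads, FPKM were therefore higher in P14 replicate 1 than in the other libraries.

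Levels were compared as log2(FPKM + 1), a scale that understates the fold of low genes, with limma 3.58.1 (trend, robust, statmod 1.5.0) in R 4.3.3 over 14044 genes at 1 FPKM or more in at least 4 of 8 libraries. P-values were adjusted by Benjamini-Hochberg over all tested genes, with a threshold of 0.05. Ratios of paralogs were compared by exact two-sided permutation tests over 70 assignments, adjusted over 3 ratios. The limma steps were tested on simulated data. The alternatives were a pseudocount of 0.1, no filter, TPM, quantile normalization, no robust step, sample weights, a replicate block and each library left out; leaving out P14 replicate 1 together with TPM was added after seeing the data.

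Members and gene lists were chosen with earlier results of these data known. Every member is named; library values are given for those called with or without P14 replicate 1 and for the 2 with the highest mean in each role, and for some others chosen after their values were seen. From each other list the rule takes up to 3 called genes with the largest change and the gene with the highest mean; 1 such gene is not reported here. Promoter windows came from RefSeq (GRCm38.p6), matched by symbol.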

Additional observations from a re-analysis of the deposited data

Results flagged for a closer look

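Among 86 groups of 4 values, 14 single values stood apart from the other 3 of their group by Dixon's criterion, and chance gives about 1 in 20 groups. Of these, 10 were in P14 replicate 1, with 8 highs and 2 lows. The rate of 1 in 20 holds for independent groups, whereas these groups share libraries. Other low values of P14 replicate 1 were not flagged. Itga5, Itgb1 and Fermt2 were there at 0.298, 0.523 and 0.357 of the mean of the other P14 libraries.

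The highs were in Itga2 (6.58 FPKM against 2.11 to 2.6 in the other P14 libraries), Itga3 (79 against 19.2 to 21.7), Itga6 (22.6 against 16.4 to 17.1) and Itgb4 (40.4 against 4.85 to 6.64). Itgb6 was at 11.4 FPKM against 0.13 to 0.858, and Pxn at 76.4 against 19.4 to 27.1. Itgad, at 0.051 FPKM from 3 reads, and Itgb2l, at 0.589 FPKM from 25 reads, were the other highs. Itga9 was low, at 12.9 FPKM against 26.1 to 26.2, and so was Tln2, at 2.99 against 6.62 to 7.29. The epithelial marker sum was also highest in P14 replicate 1, and its part in these values was not tested.

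In other libraries, Itga11 stood high in P14 replicate 3 (1.07 FPKM against 0.69 to 0.73) and Itga9 low in E17.5 replicate 4 (30.7 against 38.3 to 38.8). Itgb6 in E17.5 replicate 3 (0.0193 FPKM) and Itgb2l in E17.5 replicate 4 (0.0332 FPKM) each rested on 2 reads.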

How the results depend on the processing

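With all libraries 3473 genes were called over the whole table. This became 7726 with sample weights, where P14 replicate 1 had a weight of 0.0512, 1744 with the replicate block, 7128 without P14 replicate 1 after TPM rescaling, and 1735 to 6958 when each library was left out. Of the members, 12 were called, against 21 with sample weights, 23 without P14 replicate 1 after TPM rescaling and 8 to 22 leaving out each library. Increases went from 1 to 2 with a pseudocount of 0.1, 0 with no filter, 2 with quantile normalization, 2 without the robust step, 6 with sample weights, 0 with the block, 5 without P14 replicate 1 after TPM rescaling and 0 to 6 leaving out each library. Decreases went from 11 to 18 without P14 replicate 1 after TPM rescaling and 8 to 16 leaving out each library. Leukocyte integrins had 2 decreases, 1 with the block and 1 to 3 leaving out each library. Wall integrins had 0 increases, 1 with quantile normalization, 2 with sample weights, 2 without P14 replicate 1 after TPM rescaling and 0 to 2 leaving out each library. In all 16 alternatives, 8 members stayed called: Itga11, Itga2, Itga6, Itga8, Itgam, Itgav, Itgb3bp and Ptk2. The share of all tested genes that stayed called in every alternative was not counted, so these 8 describe the members only.

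The sign turned for several genes not called with all libraries. Under sample weights, without P14 replicate 1, and without it after TPM rescaling, the log2 fold changes were 0.129, 0.121 and 0.0512 for Itga5, 0.0984, 0.117 and 0.0516 for Itgb3, 0.148, 0.0875 and 0.0177 for Vcl, 0.117, 0.101 and 0.0314 for Ilk, 0.0941, 0.128 and 0.0583 for Parva, and -0.0373, -0.0568 and -0.128 for Pxn. Zyx was at 0.0403 under the first and 0.0147 under the second. Tln1 was at -0.153 after TPM rescaling, -0.138 after quantile normalization, and -0.0087, -0.0523 and -0.0564 without E17.5 replicate 4, P14 replicate 2 and P14 replicate 4. Itgb5 was at 0.0275 without P14 replicate 2 and 0.0395 without P14 replicate 4. Itgb7 was at -0.0301 without P14 replicate 4 and -0.0622 without P14 replicate 1 after TPM rescaling. Over single libraries left out, the ends of the range away from the sign change were -0.526 for Itga5, -0.369 for Itgb3, -0.312 for Ilk, -0.293 for Parva and 0.584 for Pxn (each without P14 replicate 2), -0.295 for Vcl and -0.486 for Zyx (each without P14 replicate 4), -0.498 for Itgb5 and 0.255 for Tln1 (each without P14 replicate 1), and 0.627 for Itgb7 (without P14 replicate 2). The cause was not tested.

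The labels do not say that replicate numbers pair the libraries. Deviations of same-numbered libraries from the mean of their age correlated at -0.033, 0.00947, -0.0641 and -0.0492. The P14 mean includes the outlying replicate 1, so these correlations do not decide whether libraries were paired. With the replicate block 9 members were called, and Itgax (adjusted p = 0.0534), Itgb8 (0.0803) and Lims2 (0.0834) were not. The 3 paralog ratios kept their log2 differences (-0.394, -0.452 and 1.78) with an exact sign-flip adjusted p of 0.125, the smallest that 4 pairs can give. With no filter Itga4 (0.0787), Itgb8 and Lims2 (0.0833) missed the threshold.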

Other observations

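Leukocyte integrins made up 3.15% to 3.86% of all integrin FPKM at E17.5 and 4.28%, 1.06%, 2.91% and 2.83% in P14 replicates 1 to 4. The ratio of Itgam to Ptprc was 0.376 to 0.497 at E17.5 and 0.135, 0.63, 0.22 and 0.112 in P14 replicates 1 to 4, so P14 replicate 2, with the lowest Ptprc, had the highest ratio of all. The ratio of Itgb7 to Ptprc was 0.0715 to 0.195 at E17.5 and 0.186, 0.0927, 0.229 and 0.262 at P14.

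The ratio of Itgb6 to Epcam was 0.00927, 0.0154, 0.00726 and 0.00967 in P14 replicates 1 to 4. At E17.5 it was 0.00607 to 0.0228, but Itgb6 rested there on 1 to 2 reads per library, too few to compare the ages. Itgb4 was 1.2 to 2.77 times Epcam at E17.5 and 0.0329, 0.581, 0.0562 and 0.145 of it in P14 replicates 1 to 4. The ratio of Itga7 to Itga6, the laminin receptor subunits of muscle and of endothelium and epithelium, was 0.0467 to 0.0572 at E17.5 and 0.082, 0.38, 0.324 and 0.407 in P14 replicates 1 to 4. These ratios were not tested.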
